A study of Mus musculus with 2 samples.

Results

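Sodium and potassium channel genes were taken from the count table by symbol: every gene named Scn with a number and the letter a or b, and every gene whose name starts with Kcn. The rule found 94 of 17774 genes and used no expression value. Of these, 87 had a count in at least 3 cells and were kept, and 44 were found in 10% or more of the cells of 1 library or both, and are called measured below. A member can thus be measured through the library in which it is high, so values are also given over all 87. The other 7 (Kcnj3, Kcnip4, Kcnk5, Kcnj1, Kcnmb1, Kcnj6 and Kcnk18) had 1 to 3 counts each, and Kcnj13, a channel of the retinal pigment epithelium, had no row. The symbols also take in 2 RNA genes that encode no channel, Kcnq1ot1 and Kcnmb4os2, and auxiliary proteins that open no pore of their own.

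The cells were sorted as cones from Pde6ccpfl1 mice on a C57BL/6 background, in which a mutation of the cone phosphodiesterase gene Pde6c leads to cone loss. All animals also carried a Chrnb4.eGFP transgene, whose promoter drives green fluorescent protein in cones and on which the sort rested. The untreated library came from retinae that received no injection, and the GSK-J4 library from retinae given a single intravitreal injection of GSK-J4, an inhibitor of the demethylases that act on lysine 27 of histone H3, at postnatal day 14 and 10 µM. Both were collected at postnatal day 24, which is 10 days after the injection, although the cell names of the GSK-J4 library hold the word adult. One GFP-positive cell was sorted into each well of a plate. There was 1 library and 1 plate per condition, no sham-injected library was analysed here, and the number of animals was not given. Treatment, injection and plate therefore cannot be told apart, no difference has a replicate check, and every interval below is a 95% interval of counting error only.

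Voltage-gated sodium channels open within a fraction of a millisecond of depolarization and carry the upstroke of action potentials. Potassium channels set the resting potential, repolarize the membrane and shape slow voltage responses. Cones signal with graded potentials rather than trains of spikes, and their inner segments are known for a potassium current that needs the silent subunit Kcnv2, whose loss causes a cone dystrophy in people.

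The table held 85 untreated and 66 GSK-J4 cells, and after the filter 82 and 64 were compared, with 1113424 and 208578 counts in all. An untreated cell held 860 to 98250 counts, with a median of 8118, and a GSK-J4 cell 420 to 15371, with a median of 2335.5. The 11 cone markers took 2.59% of the untreated and 0.213% of the GSK-J4 counts. In the GSK-J4 library Opn1sw, Gngt2, Cngb3, Pde6c and Guca1a had no count, and 50 of 64 cells had no count on any cone marker, so the cone label was not borne out by these markers in most of those cells. Rod markers took 0.271% and 0.0110% and Müller glia markers 0.111% and 0.0316% of the untreated and GSK-J4 counts. The GSK-J4 share of the bipolar, horizontal and ganglion cell lists was 0.959 (0.587 to 1.5), 1.36 (0.923 to 1.97) and 1.39 (0.849 to 2.20) times the untreated one. That of the amacrine cell list was 2.44 times (1.49 to 3.91), from 59 and 27 counts on genes that did not all go the same way. Genes of the olfactory and vomeronasal receptor families (symbols starting Olfr or Vmn), which serve here as a measure of background because retinal cells are not known for them, took 0.624% and 1.43%. The 2 libraries shared 54 well names but no cell name.

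The promoters of 3 members are shown because Kcnh7 and Kcnd2 were the members furthest up in the GSK-J4 library, and Kcne2 the member furthest down. Each is the 250 bases before the start of the gene in RefSeq on GRCm38.p6, read 5′ to 3′ on the strand of the gene, and capitals mark CpG dinucleotides. The Kcnh7 window is chr2:63184288-63184537 on the minus strand, the Kcnd2 window chr6:21215096-21215345 on the plus strand, and the Kcne2 window chr16:92292139-92292388 on the plus strand, the first of 2 starts listed for that gene.
Kcnh7: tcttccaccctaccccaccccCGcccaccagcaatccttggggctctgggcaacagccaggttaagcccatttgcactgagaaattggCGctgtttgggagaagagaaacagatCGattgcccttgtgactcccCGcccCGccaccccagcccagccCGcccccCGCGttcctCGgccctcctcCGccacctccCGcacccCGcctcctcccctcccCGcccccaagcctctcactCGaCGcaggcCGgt
Kcnd2: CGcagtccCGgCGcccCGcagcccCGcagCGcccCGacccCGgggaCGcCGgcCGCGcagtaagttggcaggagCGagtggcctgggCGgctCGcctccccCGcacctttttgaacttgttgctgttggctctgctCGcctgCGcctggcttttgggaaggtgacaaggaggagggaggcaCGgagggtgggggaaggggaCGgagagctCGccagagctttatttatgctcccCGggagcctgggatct
Kcne2: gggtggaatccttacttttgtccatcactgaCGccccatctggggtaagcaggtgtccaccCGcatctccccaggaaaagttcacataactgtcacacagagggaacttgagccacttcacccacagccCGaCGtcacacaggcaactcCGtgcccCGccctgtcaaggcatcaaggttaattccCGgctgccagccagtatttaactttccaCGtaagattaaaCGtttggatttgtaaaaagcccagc

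The Kcnh7 window held 16 CpG, or 0.665 of the number expected from its C and G content, and the Kcnd2 window 22 (0.750 of expected). The Kcne2 window held 9 (0.544 of expected), and that of its second start 1. Promoters were listed for 62 of the 87 members, with 86 starts. Their median was 8 CpG, against 6 over all 32851 starts listed. Of the 16 members higher in the GSK-J4 library, as defined below, only 9 were listed, with 10 starts and a median of 13 CpG. The 15 listed measured members that passed no limit had 23 starts and a median of 5. A link between CpG number and log-fold was not tested. The 3 listed lower members had 5 starts and a median of 8. The 6 letters TAATCC, the core recognized by the photoreceptor factor Crx, occurred on either strand of 2.33% of member starts (Kcnrg and Scn7a) and of 6.25% of all starts. Kcnb2, Kcnj14, Kcnq3, Kcnv2 and Scn3a were among those with no entry.

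The channel genes took a larger share of the counts in the GSK-J4 library, and so did the olfactory and vomeronasal receptor genes. Summed over the 87 members, 2800 of the untreated counts fell on channel genes, a share of 0.251% (0.242 to 0.261, Clopper-Pearson). In the GSK-J4 library 1161 counts did, a share of 0.557% (0.525 to 0.589). The GSK-J4 share was 2.21 times the untreated one (2.07 to 2.37), against 2.29 times (2.19 to 2.39) for the 396 receptor genes. Per 1000 counts on receptor genes there were 403 channel counts in the untreated and 390 in the GSK-J4 library. The channel share thus moved together with the background measure, and the part of the background in it was not tested. Without Kcnh7, the channel shares were 0.226% and 0.440%, a ratio of 1.95 (1.80 to 2.10).

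In absolute terms an untreated cell held a mean of 34.1 channel counts and a GSK-J4 cell 18.1. The median cell had a count on 7 channel genes in both libraries, with a range of 0 to 44 in the untreated and 1 to 26 in the GSK-J4 cells. Since the depths differed, each cell was also thinned to 867 counts, which left out 1 untreated and 14 GSK-J4 cells. The expected number of channel genes with a count was then a median of 1.58 per untreated cell, with a highest value of 3.72, and 3.13 per GSK-J4 cell, with a range of 1.04 to 6.84.

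**Figure D1:**
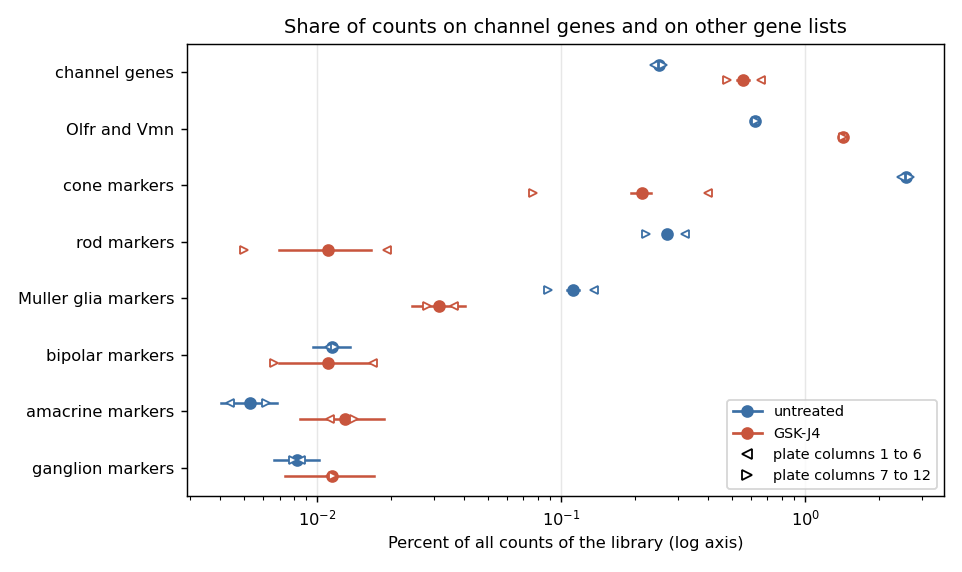
Percent of all counts of each library (log axis) on channel genes, on receptor genes with symbols starting Olfr or Vmn, and on marker lists. Filled circles with bars give the library and its 95% Clopper-Pearson interval, and open triangles the plate columns 1 to 6 and 7 to 12. The channel genes stood at 0.251% and 0.557%, beside 0.624% and 1.43% for the receptor genes, while cone markers went from 2.59% to 0.213%.

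Single genes were compared by the log-fold, the natural log of the mean count per 10000 counts per cell plus 1 in the GSK-J4 library, minus the same in the untreated library, with a limit of 0.3 in either direction. Of the 44 measured members, 16 were higher by more than the limit and 4 lower. Over all 7682 measured genes, 20.4% were higher and 24% lower, against 36.4% and 9.09% of the members. Among all 87 members 17 were higher and 4 lower, that is 19.5% and 4.60%, beside 12.6% and 11.8% of all 15947 genes. The median log-fold was 0.22 over the measured members and -0.0050 over all measured genes, and the 70 measured receptor genes had a median of 0.22 as well, with 44.3% of them higher. Scaled to the counts on receptor genes, a setting chosen after the data were seen, the median of the members was -0.034, which was 0.12 above that of all genes, and 2 members were higher and 4 lower (3.71% and 32.5% of all genes).

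Each gene was also compared by the ratio of its 2 summed rates, GSK-J4 over untreated. Its interval lay above 1 for 31 of the 87 members (35.6%, against 24% of all genes) and below 1 for 3, Kcne2, Kcnv2 and Kcnn1 (3.45%, against 14.1%). Set against the ratio of the receptor genes, 2.29, it lay above for 12 members (13.8%, against 8.58% of all genes), among them Kcnh7, Kcnd2, Scn3a, Scn11a and Scn2b. It lay below for 13 members (14.9%, against 27.3%), among them Kcne2, Kcnv2, Kcnn1, Kcnj14, Kcnab2, Scn8a and Scn2a.

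**Figure D2:**
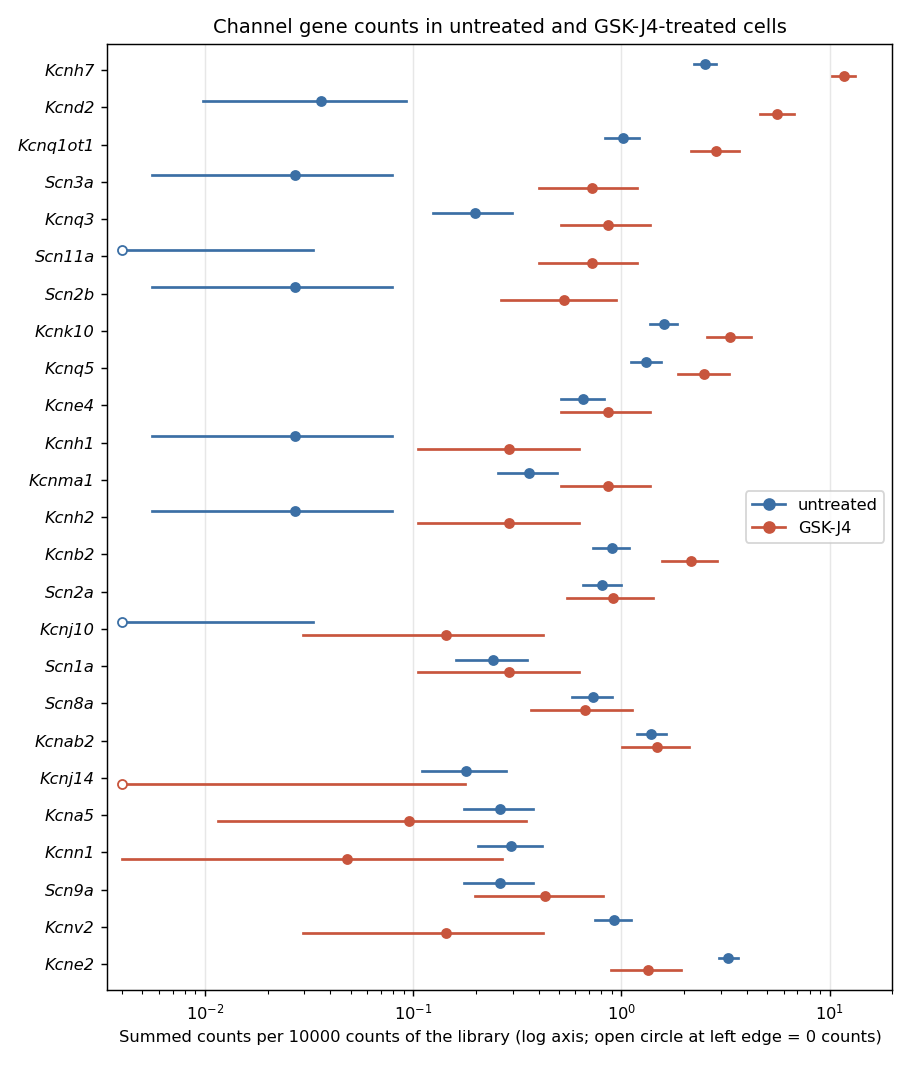
Summed counts per 10000 counts of the library for 25 channel genes, on a log axis, ordered by log-fold. Circles give the untreated (blue) and GSK-J4 (red) library, bars the exact 95% Poisson interval, and open circles at the left edge a count of 0. Kcnh7 stood at 2.52 and 11.7 and Kcnd2 at 0.0359 and 5.61, while Kcne2 stood at 3.26 and 1.34 and Kcnv2 at 0.916 and 0.144.

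The voltage-gated potassium pore subunits, which open on depolarization, formed the largest group. All 30 were kept and 16 were measured, of which 6 were higher and none lower, beside 20.4% higher and 24% lower of all measured genes. Their summed counts were 1063 in the untreated and 629 in the GSK-J4 library, or 9.55 and 30.2 per 10000. Kcnh7 held 281 of the untreated and 243 of the GSK-J4 counts, and Kcnd2 held 4 and 117. In the GSK-J4 library 1 cell had 154 of the Kcnh7 counts and 1 cell had 92 of the Kcnd2 counts. The summed rates of the group thus rest in large part on these 2 genes. Kcnh7 and Kcnd2, which carry ether-a-go-go-related and A-type potassium currents, held the highest log-folds of all members.

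Kcnh7, at chr2:62693414-63184287 on the minus strand of GRCm38, encodes a pore subunit of the ether-a-go-go-related family, whose currents repolarize cells after long depolarizations. It had 281 counts in 32 of 82 untreated cells (249 to 316) and 243 counts in all 64 GSK-J4 cells (213 to 276). The summed rate was 2.52 and 11.7 per 10000, a ratio of 4.62 (3.87 to 5.50), and the log-fold 2.31. The 2 libraries differed in how the counts lay over the cells. In the untreated library 50 cells had no count, 16 had exactly 1, none had 2 to 4, and 16 had at least 5, up to 51. In the GSK-J4 library no cell was at 0, 45 had exactly 1 count, 16 had 2, and the remaining 3 had at least 3, the highest with 154. The cells with exactly 1 count ranged from 420 to 15371 counts in total, the whole range of depth in that library.

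A count of Kcnh7 in every GSK-J4 cell was rare for a channel gene and for any gene. In the GSK-J4 library 19 genes had a count in every cell, and Kcnh7 was the only member among them. The next member, Kcnq1ot1, reached 28 cells. The cell with 154 counts held 1077 counts in total, so Kcnh7 made up 14.3% of that cell. Without the highest cell of each library the log-fold was 1.12, and 230 untreated and 89 GSK-J4 counts were left. The ratio of 4.62 includes the highest cells and rests in large part on the cell with 154 counts. By plate side, the log-fold was 3.01 in columns 1 to 6 and 0.76 in columns 7 to 12. Exons of Kcnh7 overlap those of Gca on the opposite strand, and since the use of strand in counting was not stated, reads of the 2 genes cannot be told apart. Gca had no row of its own in the filtered table.

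Kcnd2, at chr6:21215503-21729805 on the plus strand, encodes a pore subunit of the fast A-type current, which delays firing in dendrites. It had 4 counts in 4 untreated cells (1.09 to 10.2) and 117 counts in 26 GSK-J4 cells (96.8 to 140). The ratio of the summed rates was 156 (59.4 to 583), and the log-fold 1.61. Of the 26 GSK-J4 cells 25 had exactly 1 count and a single cell had 92 of its 5580 counts. Leaving out the highest cell of each library gave 25 counts and a log-fold of 0.95. After thinning to one depth, a count was expected in 0.291% of untreated and 14.5% of GSK-J4 cells, so that the gene stayed more widespread in the GSK-J4 library at equal depth.

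**Figure D3:**
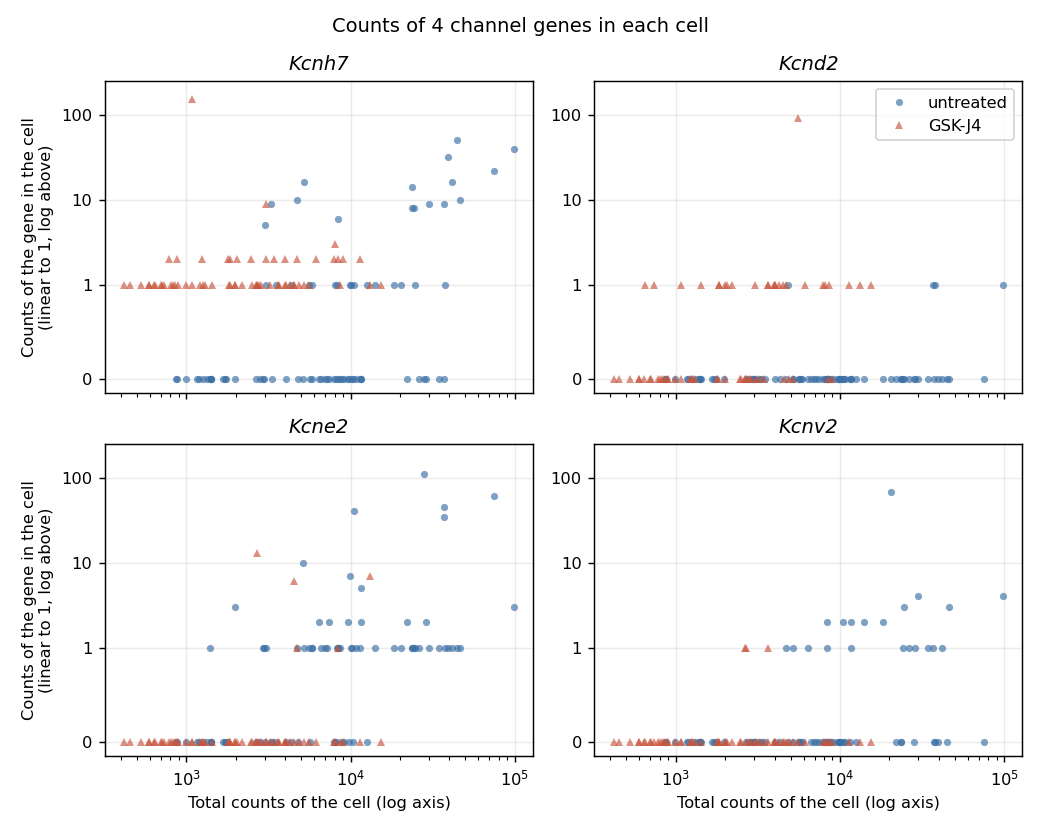
Counts of Kcnh7, Kcnd2, Kcne2 and Kcnv2 in each cell (linear to 1, log above) against the total counts of that cell (log axis), with untreated cells as blue circles and GSK-J4 cells as red triangles. Kcnh7 lay at 1 or 2 counts in 61 of 64 GSK-J4 cells whatever their depth, and 1 cell held 92 of the 117 Kcnd2 counts.

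Most Kcnq genes, though not Kcnq1, carry the M-current, a slow potassium current that damps repeated firing. Kcnq3 had 22 counts in 10 untreated and 18 counts in 14 GSK-J4 cells, a ratio of 4.37 (2.21 to 8.53) and a log-fold of 0.63. The log-fold of Kcnq3 was 1.03 in columns 1 to 6, 0.074 in columns 7 to 12 and 0.14 when scaled to the receptor genes. Kcnq5 had 146 and 52 counts, a ratio of 1.90 (1.36 to 2.63) and a log-fold of 0.28, inside the limit. A single GSK-J4 cell held 25 of the 52 counts, and without the highest cell of each library the log-fold was -0.074. By plate side the log-fold of Kcnq5 was 0.55 in columns 1 to 6 and -0.22 in columns 7 to 12. Kcnq1 and Kcnh8, named because they passed the limit, had log-folds of 0.48 and 0.36. Their counts in the untreated and GSK-J4 library were 8 and 15 for Kcnq1 and 1 and 9 for Kcnh8.

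Other pore subunits stayed inside the limit. Kcnb2, a delayed rectifier, had 100 and 45 counts, a ratio of 2.40 (1.65 to 3.45) and a log-fold of 0.14. A single GSK-J4 cell held 27 of the 45 counts, and 80 and 18 counts were left without the highest cell of each library. Kcna5 had 29 and 2 counts, a ratio of 0.368 (0.0426 to 1.46) and a log-fold of -0.23. Of its 29 untreated counts 28 lay in columns 1 to 6 and 15 in a single cell. The log-fold of Kcna5 was -0.46 in columns 1 to 6 and 0.028 in columns 7 to 12. Kcnh1 and Kcnh2 each had 3 untreated and 6 GSK-J4 counts, a ratio of 10.7 (2.28 to 66.0).

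The silent modifier subunits open no channel alone and change the current of the delayed rectifiers they join. All 7 were kept and 2 were measured. Kcnv2, at chr19:27322588-27337179 on the plus strand, had 102 counts in 21 untreated cells and 3 counts in 3 GSK-J4 cells, a ratio of 0.157 (0.0319 to 0.472) and a log-fold of -0.36. A single untreated cell held 67 of the 102 counts, and 98 of them lay in columns 7 to 12. The log-fold was -0.14 without the highest cell of each library, -0.52 in columns 7 to 12 and -0.033 in columns 1 to 6, where the untreated count was 4. Thinned to one depth, a count was expected in 3.45% of untreated and 1.78% of GSK-J4 cells. The lower Kcnv2 stood beside the lower cone markers, and their part in it was not tested. Kcns2, the other measured gene, named after its values were seen, had 46 and 13 counts and a log-fold of 0.43.

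Among the auxiliary potassium channel subunits, of 12 members 10 were kept and 3 measured, with 644 untreated and 94 GSK-J4 counts, or 5.78 and 4.51 per 10000. Kcne2, at chr16:92292389-92298129 on the plus strand, encodes a small membrane protein that alters the gating of several potassium pores. It had 363 counts in 51 untreated cells (327 to 402) and 28 counts in 5 GSK-J4 cells (18.6 to 40.5). The untreated cells mostly held single counts, with exactly 1 in 35 cells and a highest cell of 109. The 5 GSK-J4 cells held 13, 7, 6, 1 and 1.

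The ratio for Kcne2 was 0.412 (0.270 to 0.605) and the log-fold -0.52, the lowest of the measured members. It was below -0.3 in all 9 alternative settings, from -0.39 to -0.99, and on both plate sides. At one depth a count was expected in 13.5% of untreated and 4.76% of GSK-J4 cells. Kcne4, of the same family, had 73 and 18 counts, a ratio of 1.32 (0.739 to 2.23) and a log-fold of 0.25. The log-fold of Kcne4 was -0.40 in columns 1 to 6 and 0.62 in columns 7 to 12. Without the highest cell of each library it was -0.15, and 5 of the 9 alternative settings kept its sign. Kcnab2, a cytoplasmic beta subunit, had 155 counts in 37 untreated and 31 counts in 8 GSK-J4 cells, a ratio of 1.07 (0.701 to 1.58) and a log-fold of -0.15, which was -0.84 in columns 1 to 6 and 0.34 in columns 7 to 12.

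The sodium channel pore subunits carry the fast inward current. All 10 were kept and 9 measured, of which 3 were higher and 1 lower, again beside 20.4% and 24% of all measured genes. Their summed counts were 279 and 109, or 2.51 and 5.23 per 10000. Scn11a, a channel of pain-sensing neurons at chr9:119753759-119825456 on the minus strand, had a count in 0 of 82 untreated cells, which allows a share of up to 3.66%, and 15 counts in 13 of 64 GSK-J4 cells, with at most 3 in a cell. Against a floor of 3 counts over the untreated library this was at least 26.7-fold higher, while the interval of the ratio, which also allows for the counting error of the 15 counts, began at 19.1. The log-fold was 0.52. Scn3a, the sodium channel of the embryonic brain at chr2:65457118-65567627 on the minus strand, had 3 counts in 3 untreated and 15 counts in 13 GSK-J4 cells, a ratio of 26.7 (7.55 to 144) and a log-fold of 0.64.

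Scn2a, Scn8a and Scn1a, sodium channels common in mature neurons, had log-folds inside the limit. Set against the receptor ratio of 2.29, the intervals of Scn2a and Scn8a lay below it. A contrast between kinds of sodium channel was not tested. Scn2a had 90 and 19 counts, a ratio of 1.13 (0.649 to 1.86), and Scn8a had 81 and 14, a ratio of 0.923 (0.483 to 1.64). Their log-folds were 0.12 and -0.14. Scn1a had 27 and 6 counts and a log-fold of 0.046. Scn9a, of sensory neurons, had a log-fold of -0.33 but a ratio of 1.66 (0.690 to 3.59) from 29 and 9 counts, so that its direction depended on whether cells or counts were averaged.

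The sodium channel beta subunits, single-pass membrane proteins, anchor and tune the pore. All 4 were kept and 1 was measured. Scn2b had 3 counts in 3 untreated and 11 counts in 9 GSK-J4 cells, a ratio of 19.6 (5.17 to 109) and a log-fold of 0.47. The study names Scn11a, Scn3a, Scn2b and Kcnd2 as raised in these libraries, so their direction here is no independent evidence.

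The calcium- and sodium-activated potassium channels open on ions inside the cell. All 7 were kept and 5 measured, with 1 higher and 1 lower, a share each way close to the 20.4% and 24% of all measured genes. Their summed counts were 157 and 65. Kcnma1, the large-conductance channel, had 40 and 18 counts, a ratio of 2.40 (1.30 to 4.29) and a log-fold of 0.23. Kcnn1, a small-conductance channel, had 33 counts in 14 untreated cells and 1 GSK-J4 count, a ratio of 0.162 (0.00398 to 0.966) and a log-fold of -0.31. Kcnn3 of the same family, named after its values were seen, had 38 and 23 counts and a log-fold of 0.39.

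The inward rectifiers pass potassium best below the resting potential. Of 12 members 9 were kept and 3 measured, with 101 and 55 counts. Kcnj14 had 20 counts in 10 untreated cells and was found in 0 of 64 GSK-J4 cells, which allows a share of up to 4.69%. Against a floor of 3 counts over the GSK-J4 library the untreated rate was 1.25-fold higher. The interval of the ratio, however, reached up to 1.08, which allows for no difference. Of the 20 untreated counts 19 lay in columns 1 to 6. The log-fold of Kcnj14 was -0.16, with -0.29 in columns 1 to 6 and -0.022 in columns 7 to 12. Kcnj10, the potassium channel of Müller glia, had 0 and 3 counts, both at or under the floor. Kcnj4 and Kcnj11, named after their values were seen, had 44 and 22 and 9 and 8 counts, with log-folds of 0.41 and 0.39.

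The leak channels with 2 pore domains hold the resting potential. Of 10 members 8 were kept and 4 measured, with 256 and 107 counts, or 2.30 and 5.13 per 10000. Kcnk10, a leak channel opened by stretch and by lipids at chr12:98429437-98578310 on the minus strand, had 178 counts in 31 untreated and 69 counts in 26 GSK-J4 cells. The ratio was 2.07 (1.54 to 2.75) and the log-fold 0.46. A single GSK-J4 cell held 29 of the 69 counts. Without the highest cell of each library 159 and 40 counts were left, and the log-fold was 0.35. Scaled to the receptor genes the log-fold was -0.060, since the ratio lay close to the 2.29 of those genes. The 4 measured leak channels had a median log-fold of 0.23.

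Of the RNA genes 1 was measured. Kcnq1ot1 is an imprinted RNA read antisense to Kcnq1 and encodes no channel. It had 113 counts in 37 untreated and 59 counts in 28 GSK-J4 cells, a ratio of 2.79 (2.0 to 3.85) and a log-fold of 0.87. At one depth a count was expected in 8.25% of untreated and 23.1% of GSK-J4 cells. Its exons overlap those of Kcnq1, and reads of the 2 cannot be told apart without strand. Of the 87 members 25 share exon bases with another gene, among them Kcnq5, Kcnab2, Scn9a, Kcnn1 and Kcnma1.

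The 43 kept members that were not measured had few counts. Each had 0 to 11 in the untreated library, with a median of 5, and 0 to 12 in the GSK-J4 library, with a median of 2. Kcnh4 and Kcnj10 had none in the untreated library, and Kcnc4, Kcnh6 and Kcna10 none in the GSK-J4 library. Kcnc1, a fast delayed rectifier and the only one of the 43 past the limit, had 8 and 6 counts and a log-fold of 0.32.

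The members were also compared between the sides of each plate, which have no treatment difference between them. In the untreated library 3 of the 44 measured members were higher in columns 1 to 6 by more than 0.3 and 4 in columns 7 to 12, beside 16.8% and 15.8% of all genes. In the GSK-J4 library 13 and 9 members were, beside 17.9% and 17.1%. The channel share was 0.240% and 0.262% in columns 1 to 6 and 7 to 12 of the untreated plate. On the GSK-J4 plate it was 0.661% and 0.480%, and both GSK-J4 sides lay above both untreated sides. Without Kcnh7 the shares were 0.219% and 0.233% untreated and 0.431% and 0.447% in GSK-J4. Receptor genes took 0.621% and 0.626% of the untreated counts, and 1.43% on both sides of the GSK-J4 plate. The log-fold between the conditions was above 0 on both sides for 23 measured members, below 0 on both for 9, and of opposite sign for 12. The same split was not made over all genes, so it says nothing particular to the members. Past the limit, 22 members were higher and 6 lower in columns 1 to 6, beside 23.2% and 25.5% of all measured genes. In columns 7 to 12, 15 were higher and 3 lower, beside 22.1% and 24.8%.

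**Figure D4:**
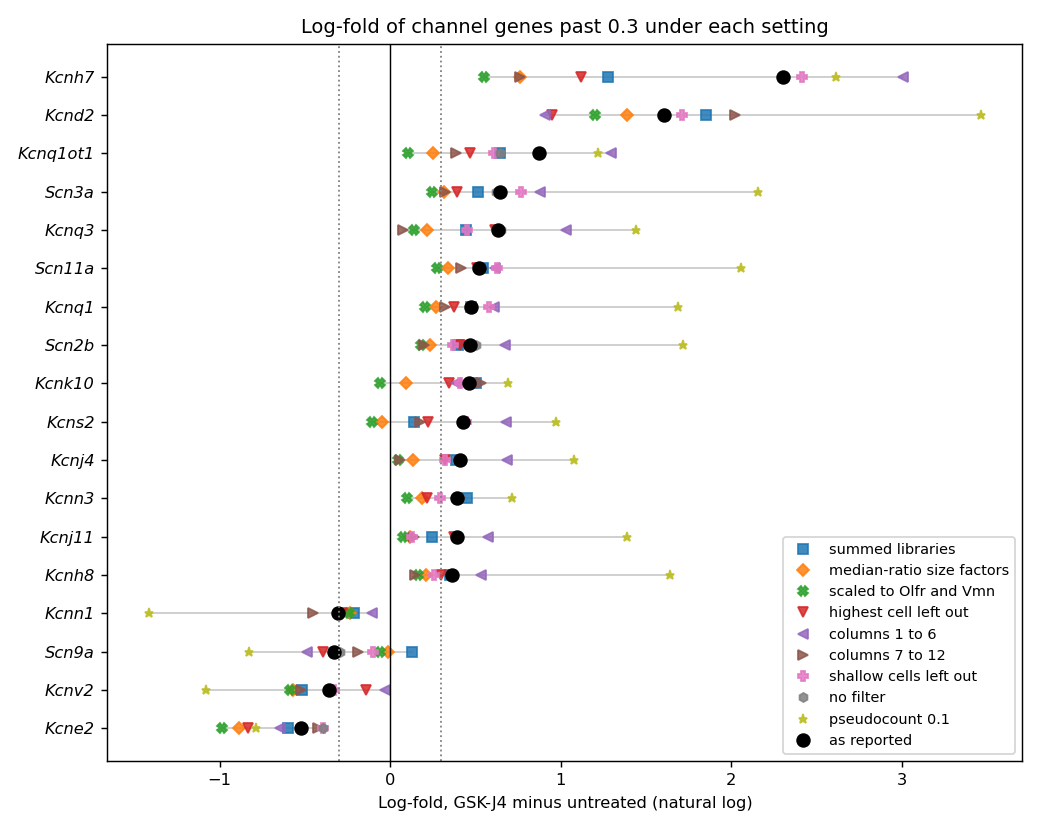
Log-fold (natural log, GSK-J4 minus untreated) of 18 channel genes past 0.3, as computed in the text (black circles) and under 9 alternative settings. Dotted lines mark the limit of 0.3. Kcnh7, Kcnd2 and Kcne2 stayed beyond it in every setting shown, while Kcnk10, Kcns2 and Scn9a crossed 0.

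The number of members past the limit followed the setting, and so did that of all genes. Summed libraries put 20 members higher and 2 lower, beside 19.3% and 22.9% of all measured genes. Median-ratio size factors put 4 higher and 3 lower, beside 5.91% and 29.2%. With a pseudocount of 0.1 in place of 1, 27 were higher and 9 lower, beside 38.2% and 40.9%, and without the filter 16 and 2, beside 20.3% and 23.9%. Of the 14 members found in 25% of the cells of a library or more, 4 were higher and 2 lower, beside 21.9% and 46.2% of 2963 genes. The share of members that were higher lay above that of all genes in each of these settings, and the share that were lower lay below it.

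Under 9 other settings of scaling, pseudocount, filter and cells, 14 of the 16 higher members kept their sign, the exceptions being Kcnk10 and Kcns2, and 3 of the 4 lower members did, the exception being Scn9a. Kcnh7, Kcnd2 and Kcne2 stayed past the limit in all 9. The lowest and highest log-folds were 0.55 and 3.01 for Kcnh7, 0.91 and 3.47 for Kcnd2, and -0.99 and -0.39 for Kcne2.

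A list of 11 other genes of the photoreceptor current was set beside the channel genes. Of its 9 measured members none was higher and 4 were lower, with a median log-fold of -0.25, beside 20.4% higher, 24% lower and a median of -0.0050 over all measured genes. Cngb3, a subunit of the cone transduction channel, had 103 and 0 counts, at least 6.43-fold lower against the floor, with an interval that began at 5.14. Atp1b2, a subunit of the sodium pump, had 212 and 26 counts and a log-fold of -0.46, and Cacna2d4, an auxiliary subunit of the synaptic calcium channel, had 68 and 1 counts and a log-fold of -0.57. The difference between these genes and the sodium and potassium channel genes was not tested.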

How the data were processed

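Single cones were sorted into 96-well plates and sequenced after a protocol adapted from SMARTseq2 and MARS-seq. Per the study's methods, reads were assigned to wells by barcode and aligned with CLC Genomics Workbench. Copies of a molecule were collapsed by its identifier, and featureCounts gave reads per gene, 3′ and 5′ added together. The deposited values are raw counts per gene and cell for 17774 genes and 151 cells. The labels name the genome GRCh38, a human build number, while the symbols are those of mouse. Coordinates here come from GENCODE vM21 on GRCm38 and promoters from RefSeq. Whether counting used strand was not given in the sources used here.

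The filter of the study was applied, that is a minimum of 3 cells per gene and of 200 genes per cell, and a maximum of 5% mitochondrial counts, which left 15947 genes and 146 cells. The study states more GSK-J4 cells after its quality control than the deposited table holds, so the cells compared here are not exactly those of the study. No doublet caller was run, and the batch correction of the study was not applied. Counts were scaled to 10000 per cell, averaged over cells, and compared as natural logs after a pseudocount of 1. With 1 library per condition no test across samples was possible. Ratios of summed counts carry exact 95% intervals, which cover counting error only, and a gene at 0 was given a floor of 3 counts over the library. Thinning to 867 counts, the 10th percentile of depth, used the expected value without replacement. The scripts ran in Python 3.11.15 with scipy 1.17.1, numpy 2.4.6 and pandas 2.3.3, and the calculation was tested on simulated data.

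The members, the lists and the alternatives were chosen with earlier results of these data known. Genes were named if they were found in 25% or more of the cells of 1 library or both, had 1 of the 5 highest or 5 lowest log-folds of the measured members, were named by the study as raised, or are known from photoreceptors, glia or pigment epithelium. Other members that passed the limit of 0.3 were named after their values were seen. Values of a few genes are left out of the text and figures.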

Additional observations from a re-analysis of the deposited data

How the results depend on the processing

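No paired analysis was possible because each condition had 1 library, and no replicate could be left out. Of the channel genes, 16 were higher and 4 lower in the GSK-J4 library, with a median log-fold of 0.22, beside 20.4% and 24% of all genes. Median-ratio size factors gave 4 higher (5.91% of all genes) and a median of 0.047, and a median of -0.12 over all genes. A pseudocount of 0.1 gave 27 higher, 9 lower (38.2% and 40.9%) and a median of 0.51. Scaling to olfactory and vomeronasal receptor genes, chosen after seeing the data, gave 2 higher (3.71%) and a median of -0.034, with -0.15 over all genes, and Kcnk10 turned to -0.060. Summed libraries gave 2 lower (22.9%), and Scn9a turned to 0.13. Without the filter 2 were lower (23.9%). A minimum of 25% of cells left 14 members, with 4 higher and 2 lower (21.9% and 46.2%), and no minimum share gave a median of 0.083. The median was 0.11 without the highest cell of each library and 0.15 in plate columns 7 to 12. Of the called members 80% were higher, against 90.9% for summed libraries, 57.1% for median-ratio factors and 33.3% for the receptor scaling, and the same shares over all genes were 46.0%, 45.6%, 16.8% and 10.3%. The channel share of columns 1 to 6 and 7 to 12 was 0.240% and 0.262% untreated and 0.661% and 0.480% in GSK-J4. Thinning gave 1.58 and 3.13 channel genes per median cell, in place of 7 and 7. Of 252 other values of 28 named genes, 178 lay within the counting interval of the value reported, 72 outside it, and 2, those of Kcnk10 and Scn9a above, changed the sign of a gene past 0.3. The causes were not tested. At 208578 counts in the GSK-J4 library, a gene needed 0.144 counts per 10000 to reach the floor, against 0.0269 in the untreated library.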
